A study of Oryza sativa Japonica Group with 17 samples.

Results

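Regions that carried an i-motif (iM) peak in hypermethylated rice DNA at pH 5.5 and in no other condition were examined. iM-IP-seq recovers DNA that folded into iMs in vitro with iMab, an antibody fragment against this structure. A common peak was a peak called against input that overlapped a peak called against IgG in the same condition by at least 1 bp. The common peaks of 5 conditions were joined where they overlapped by at least 1 bp, which gave 113086 regions. Of these, 9539 regions (8.44%, 95% Wilson interval 8.27 to 8.60) had a common peak in hypermethylated DNA at pH 5.5 only, and they are called hypermethylated pH 5.5-only regions below. The regions were chosen by the presence or absence of a common peak, so their number, fold, q-value and width are descriptions and were not tested.

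Hypermethylated DNA was purified Nipponbare DNA incubated for 1 h with M.CviPI, which the labels describe as raising CG methylation and which is known to methylate C in the GpC context. It was folded and immunoprecipitated at pH 5.5 and at pH 7.0. Demethylated DNA, also assayed at pH 5.5 and pH 7.0, came from seedlings grown with 80 µM zebularine for 5 days, starting at 5 days of age. Zebularine inhibits DNA methyltransferases. CK was genomic DNA at pH 7.0 that had received neither treatment. The general growth description is of 2-week-old seedlings, so seedling age may differ between demethylated DNA and the others. The zebularine treatment had a control of seedlings given the solvent DMSO alone, and the sources used here do not say whether CK DNA came from these seedlings. CK at pH 5.5 was not analysed here, so absence from CK refers to pH 7.0 only. Each condition had 2 iMab libraries, merged by the authors before peak calling, and 1 IgG library, and no value per replicate could be given. Hypermethylated and demethylated DNA had 1 input library each, listed without a pH. No CK input library was among the samples, so the control behind the input-called CK peaks is not known here.

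An iM is a four-stranded structure in which C-rich strands pair through C and protonated C, so that acid pH generally favours its folding. Methylation of C changes the stability of iMs in either direction, depending on the number and position of the methylated bases. The hypermethylated pH 5.5 condition differed from each of the other conditions in pH, in methylation treatment or in both. The conditions also differed in sequencing depth and in whether seedlings or purified DNA were treated, and possibly in seedling age. The part of each in the absence of a peak was not tested. Neither the genome sequence of the MSU v7.0 build nor its gene annotation was used here, so the bases and genes of the regions are not described.

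Regions found in 1 condition only made up 34556 (30.6%) of all regions. The hypermethylated pH 5.5-only regions were the second largest group of these, behind 15584 regions only in demethylated DNA at pH 5.5 and ahead of 5677 only in demethylated DNA at pH 7.0, 2841 only in hypermethylated DNA at pH 7.0 and 915 only in CK. Each of the hypermethylated pH 5.5-only regions held exactly 1 common peak, which follows from the way regions were joined. Of the 74374 regions with a common peak in hypermethylated DNA at pH 5.5, 12.8% (12.6 to 13.1) had none in another condition, whereas 30100 had one in all 5 conditions. A further 4092 regions were shared with demethylated DNA at pH 7.0 alone, 2551 with demethylated DNA at pH 5.5 alone, 1310 with hypermethylated DNA at pH 7.0 alone and 771 with CK alone. These conditions differed in their number of common peaks, so the counts are not ranked here. CK had 55062, hypermethylated DNA at pH 7.0 had 67787, and demethylated DNA had 73109 (pH 7.0) and 75913 (pH 5.5). Hypermethylated DNA at pH 5.5 had 82718, the most of the 5 conditions. The sizes of the groups found in 1 condition only were not adjusted for this.

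**Figure D1:**
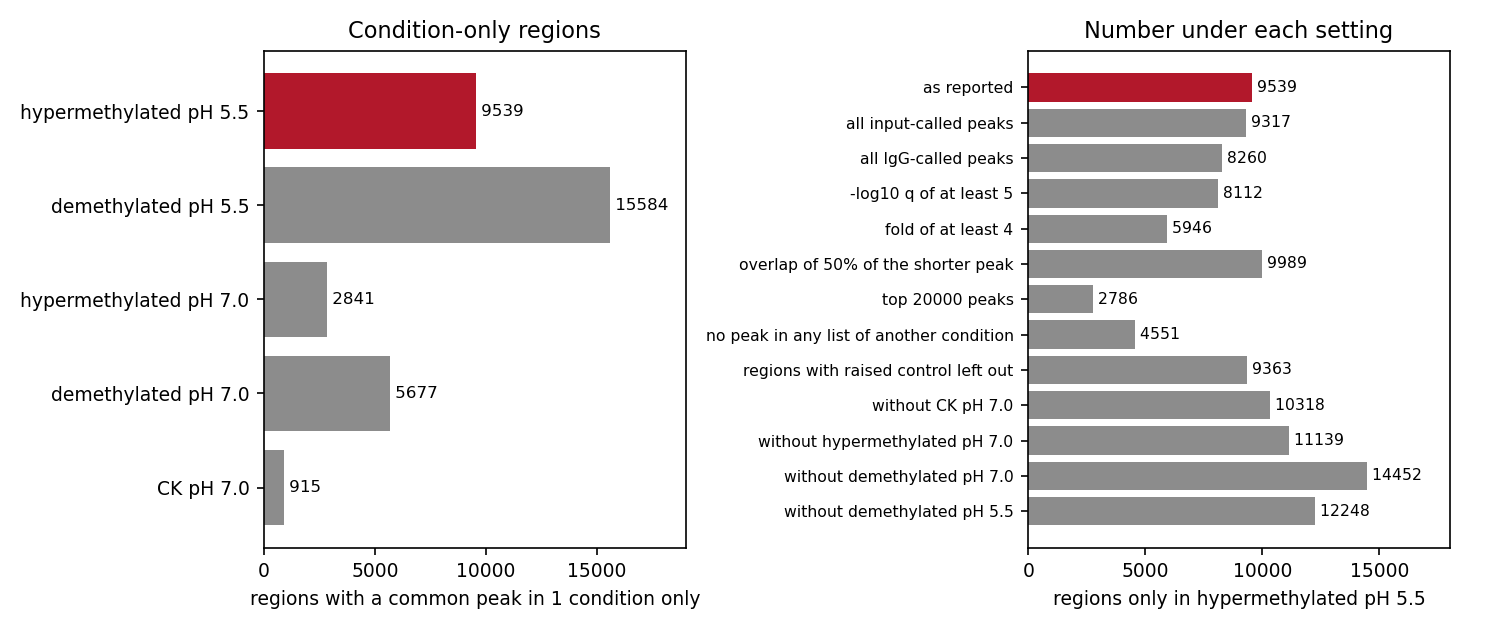
Left, number of regions with a common peak in 1 condition only, with hypermethylated DNA at pH 5.5 in red. Right, number of regions only in hypermethylated DNA at pH 5.5 as reported (9539) and under each alternative setting, from 2786 with the top 20000 peaks of each condition to 14452 without demethylated DNA at pH 7.0 in the comparison.

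The coverage behind the peak lists differed between conditions. Coverage was recovered from the deposited fold and p-values as the mean number of IP fragments per position. The hypermethylated pH 5.5 IP had a coverage of 9.35 fragments, the demethylated pH 5.5 IP 7.99, the hypermethylated pH 7.0 IP 11.4, the demethylated pH 7.0 IP 14.4 and the CK IP 12.3. The IP under study was thus shallower than each of the 3 IPs at pH 7.0. However, 3 lists had been called at reduced depth, with a coverage of 4.78 in the IgG-called list of demethylated DNA at pH 5.5, and 6.0 and 11.2 in the input-called and IgG-called lists of CK. The part of coverage in the absence of a peak was not tested.

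To characterise these regions, their peaks were set beside the other 73179 common peaks of the same IP. The fold is the ratio of IP fragments to the local input level at the summit, as given by the authors' peak caller. The median fold was 3.09 in hypermethylated pH 5.5-only regions (quartiles 2.55 and 3.85), and 4.36 in the other peaks (3.28 and 6.10). The fold was below 4.36 in 8140 of the 9539 regions (85.3%). A fold of at least 4 was found in 21.5% of the hypermethylated pH 5.5-only regions and in 57.8% of the other peaks. The median −log10 q-value against input was 7.49 in the hypermethylated pH 5.5-only regions and 16.3 in the other peaks. Most of the regions were thus weak peaks of this IP, but 94 of them (0.985%) had a −log10 q-value of at least 50, against 11.5% of the other peaks.

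When all common peaks of this IP were ranked by fold, the share found in no other condition decreased across the ranking. It was 29.8% in decile 1 (fold 1.13 to 2.56), 11.4% in decile 5 and 0.351% in decile 10 (fold 8.16 to 110.1). Decile 10 contained 29 hypermethylated pH 5.5-only regions.

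The regions were also narrow. Their median width was 198 bp, compared with 313 bp in the other peaks of the same IP. Widths under 200 bp were found in 4872 regions (51.1%) and in 15.2% of the other peaks, and the smallest peak of the list was 153 bp wide. Only 132 regions (1.38%) were 500 bp or wider, against 24.9% of the other peaks. Among the condition-only groups, the median width was 198 bp in hypermethylated pH 5.5-only regions, 231 bp in demethylated pH 5.5-only regions, 281 bp in hypermethylated pH 7.0-only regions, 277 bp in demethylated pH 7.0-only regions and 191 bp in CK-only regions. The smallest width of a list follows the fragment size of its libraries and was 121 bp in demethylated DNA at pH 5.5, 199 bp in hypermethylated DNA at pH 7.0, 206 bp in demethylated DNA at pH 7.0 and 168 bp in CK, so widths are not directly comparable between conditions.

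**Figure D2:**
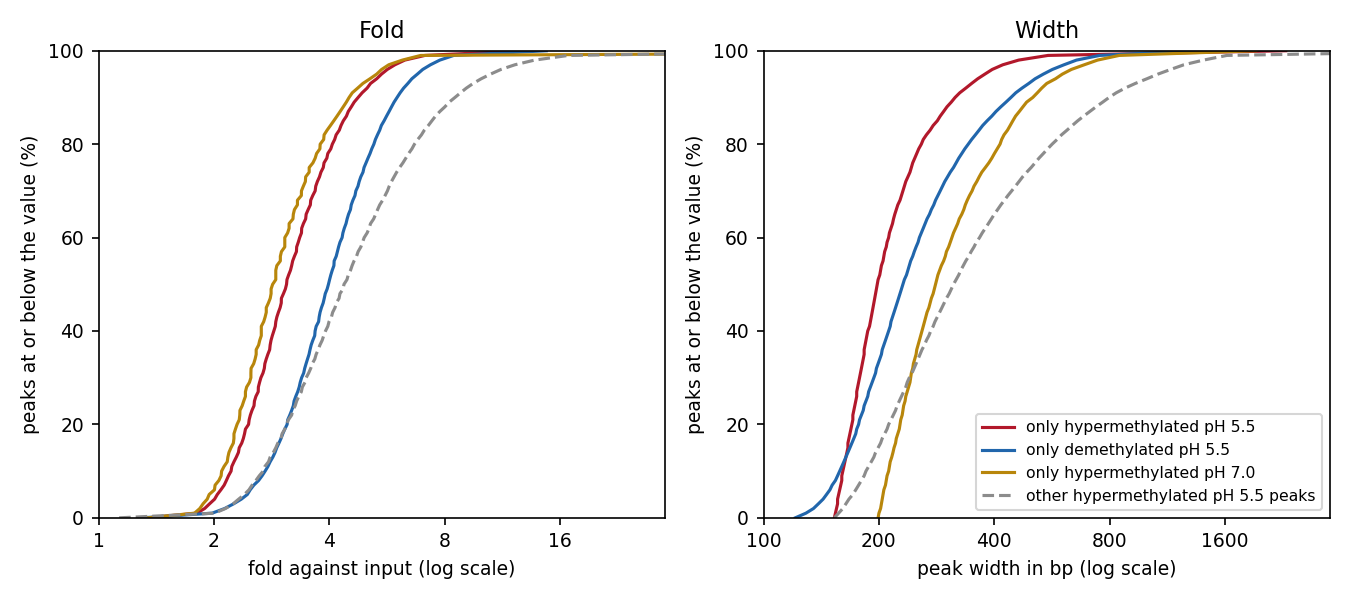
Cumulative share of peaks (%) against fold over input (left) and peak width in bp (right), both on log axes, for regions only in hypermethylated DNA at pH 5.5 (red), only in demethylated DNA at pH 5.5 (blue), only in hypermethylated DNA at pH 7.0 (yellow) and for the other peaks of the hypermethylated pH 5.5 IP (dashed). The red curve has a median fold of 3.09 and a median width of 198 bp, left of the dashed curve (4.36 and 313 bp).

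Summit depth was low in most regions. The median summit held 35 IP fragments (quartiles 29 and 44, lowest 18, highest 3915) over a local input level with a median of 10.2 fragments. In the other peaks of this IP the median summit held 49 fragments. Against IgG the picture was similar, with a median fold of 3.08 against IgG and 3.09 against input. The fold was lower against IgG than against input in 45.9% of the hypermethylated pH 5.5-only regions and in 56.4% of the other peaks.

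At the edge of the rule, 188 regions had a −log10 q-value under 2, where peaks had been called at a q-value of 0.05. The weakest region, on chromosome 1 from 36980222 to 36980382, had 18 fragments, a fold of 1.80 and a −log10 q-value of 1.34. The next, on chromosome 7 from 25091914 to 25092076, had the same 3 values. The region on chromosome 10 from 8137867 to 8138220 had a fold of 1.45 and a −log10 q-value of 1.34. A further 3094 input-called peaks of this IP overlapped no common peak of another condition but also no IgG-called peak, and were left out. On the side of overlap, 13 regions lay within 10 bp of a common peak of another condition. The closest, on chromosome 11 from 25988718 to 25988871, touched one (gap 0 bp), and the next, on chromosome 9 from 1427816 to 1428117 and on chromosome 12 from 11144258 to 11144413, were 1 bp away. Just outside the rule, 14 peaks overlapped a common peak of another condition by 10 bp or less. The smallest overlap was 4 bp, on chromosome 9 from 10940158 to 10940388, on chromosome 6 from 21120518 to 21120864 and on chromosome 7 from 10676493 to 10676649.

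A common peak requires overlapping calls against both controls, so a region could still have a peak of another condition in 1 of its 2 lists. It could also have peaks in both lists that did not overlap each other. This occurred at 1 region for hypermethylated DNA at pH 7.0 and at 1 for demethylated DNA at pH 7.0. Of the hypermethylated pH 5.5-only regions, 4988 (52.3%, 51.3 to 53.3) had a peak in at least 1 of the 8 lists of the other conditions, and 4551 had none. The share was 46.3% over the regions found in 1 of the other 4 conditions only, and ranged from 37.1% in demethylated pH 5.5-only regions to 72.5% in hypermethylated pH 7.0-only regions. Each group was checked against the 8 lists of the conditions other than its own, so the shares are not directly comparable. Demethylated pH 5.5-only regions, for example, were not checked against the input-called list of that condition, the longest with 121946 peaks. Peaks of 1 other condition were found at 3049 regions, of 2 at 1517, of 3 at 378 and of all 4 at 44 regions.

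These partial peaks were unequal between conditions. Peaks of demethylated DNA at pH 5.5 called against input covered 1916 regions (20.1%), compared with 37.2% of all regions without a common peak of that condition. Called against IgG, they covered 36 regions (0.377%), with a background of 0.321%. Hypermethylated DNA at pH 7.0 gave few partial peaks, at 301 regions (3.16%) against input and 222 regions (2.33%) against IgG, with backgrounds of 5.84% and 6.11%. Demethylated DNA at pH 7.0 had input-called peaks at 725 regions (7.60%) and IgG-called peaks at 972 regions (10.2%), with backgrounds of 12.9% and 8.08%. CK had input-called peaks at 66 regions (0.692%) and IgG-called peaks at 3157 regions (33.1%), with backgrounds of 2.61% and 49.5%. In 6 of the 8 lists the share in hypermethylated pH 5.5-only regions was below the background. It was above it in the IgG-called list of demethylated DNA at pH 7.0. In the IgG-called list of demethylated DNA at pH 5.5, the 95% interval (0.273 to 0.522%) included the background. The background regions included the hypermethylated pH 5.5-only regions themselves, and region widths were not matched. The background regions lacked a common peak of the named condition only, whereas the rule excluded common peaks of every other condition. The rule therefore bears on these differences, which are descriptions and were not tested.

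**Figure D3:**
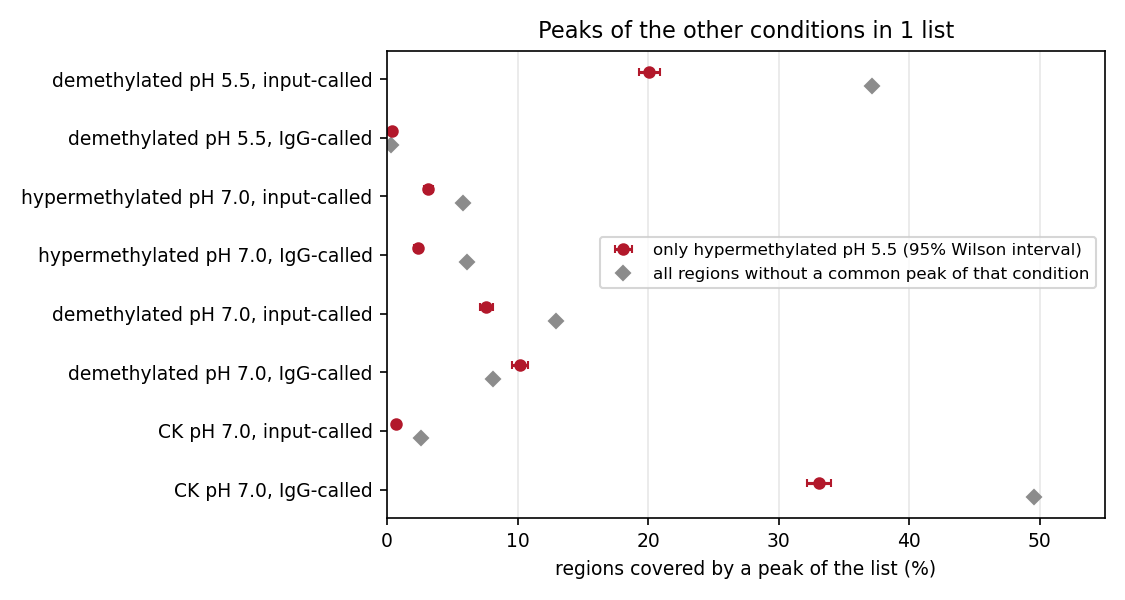
Share of regions (%) covered by a peak of each of the 8 lists of the other conditions, for regions only in hypermethylated DNA at pH 5.5 (red circles, bars are 95% Wilson intervals) and for all regions without a common peak of the condition named (grey diamonds). The largest shares are those of the IgG-called CK list (33.1% and 49.5%) and of the input-called list of demethylated DNA at pH 5.5 (20.1% and 37.2%).

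Regions with more fragments were more often covered by a partial peak. Such a peak was present at 42.1% of the regions in quintile 1 of summit fragments (18 to 28) and at 66.5% of those in quintile 5 (47 to 3915). Regions with a peak in another list had a median fold of 3.26 and a median width of 205 bp, against 2.95 and 191 bp in the 4551 regions without one. By these medians, the regions absent from every list of the other conditions were the weaker and narrower ones, although the region with the highest −log10 q-value was among them.

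A small subset differed from the rest in the level of the input. At 176 regions (1.85%, 1.59 to 2.14) the local input level was at least 2 times the background of the list, compared with 0.971% of all common peaks of this IP. At 49 regions it was at least 10 times the background, with 0.319% among all common peaks. Since this IP chose the regions, these shares are descriptive. In demethylated pH 5.5-only regions, 263 (1.69%) were at 2 times the background or more, in hypermethylated pH 7.0-only regions 15 (0.528%), in demethylated pH 7.0-only regions 18 (0.317%) and in CK-only regions 14 of the 828 whose level could be solved (1.69%, 1.01 to 2.82).

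Both the IP and the input were high at these 49 regions. Their summits held 139 to 3915 fragments (median 732), and their median fold was 3.45, against 3.09 over all 9539 regions. CK had an input-called peak at 20 of the 49 and an IgG-called peak at none, the opposite order to that seen over all 9539 regions. Hypermethylated DNA at pH 7.0 had an input-called peak at 11 and an IgG-called peak at 4. In all, 38 of the 49 regions had a peak in a list of another condition.

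**Figure D4:**
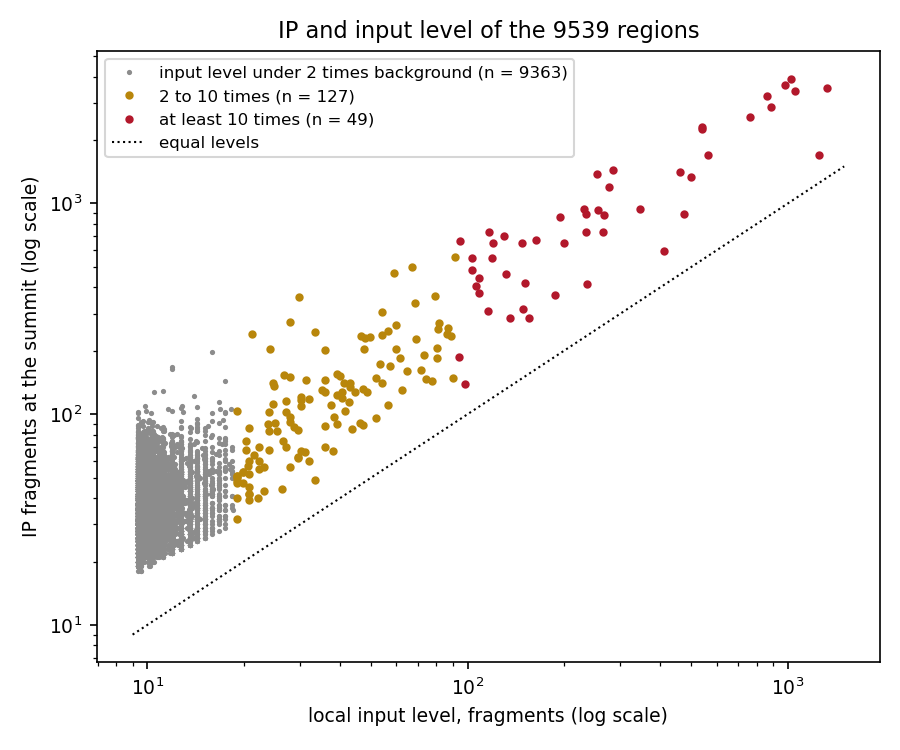
IP fragments at the summit against the local input level, in fragments and on log axes, for the 9539 regions only in hypermethylated DNA at pH 5.5. The 49 red regions, at 10 times the background input level or more, hold 139 to 3915 fragments, the 127 yellow ones lie at 2 to 10 times, and the dotted line marks equal levels.

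All of the 10 regions with the highest −log10 q-value belonged to these 49. The highest was on chromosome 11 from 12317211 to 12317611, with 3915 IP fragments over an input level of 1025, a fold of 3.82 against input and 2.16 against IgG, and a −log10 q-value of 1021. It had no peak in any list of another condition. A neighbour on chromosome 11 from 12304354 to 12304553 also had none, with 3426 fragments, an input level of 1057 and a fold of 3.24. Close by on chromosome 11, the region from 12328640 to 12328835 had 2575 fragments and a fold of 3.39, and demethylated DNA at pH 5.5 had a peak there against input.

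The other 7 were spread over 5 chromosomes, and each had a peak in at least 1 other list. On chromosome 2, the region from 13704599 to 13704813 had 3649 fragments and a fold of 3.71, and the region from 14277899 to 14278178 had 3526 fragments and a fold of 2.67. The region from 14277899 lay over the highest input level, 1322 fragments or 141 times the background. On chromosome 3, the region from 19574035 to 19574251 had 3231 fragments and a fold of 3.75, and CK had an input-called peak there. On chromosome 1, the region from 33573131 to 33573406 had 2303 fragments and a fold of 4.25, and the region from 16947308 to 16947540 had 1382 fragments and a fold of 5.42. On chromosome 6, the region from 15451784 to 15452153 had 2248 fragments and a fold of 4.17, and on chromosome 4 the region from 9184424 to 9184685 had 2854 fragments and a fold of 3.22. The fold was lower against IgG than against input in all 10 regions.

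The 5 regions with the highest fold were different ones, with far fewer fragments. On chromosome 2, the region from 13725047 to 13725235 had a fold of 13.0 (167 fragments) and the region from 13748979 to 13749416 had a fold of 12.7 (164 fragments). On chromosome 1, the region from 16778171 to 16779080 had a fold of 11.7 (198 fragments). Another on chromosome 2, from 13633872 to 13634111, had a fold of 11.7 (359 fragments). On chromosome 7, the region from 18165251 to 18165502 had a fold of 11.1 (127 fragments). At all 5, demethylated DNA at pH 5.5 had a peak called against input and none called against IgG. Against IgG their folds were 4.97 to 9.04.

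The 3 widest regions were on chromosome 1 from 16744964 to 16747266 (2303 bp, fold 5.51), on chromosome 2 from 13600804 to 13602424 (1621 bp, fold 2.84) and on chromosome 4 from 9777686 to 9778809 (1124 bp, fold 4.51). Each had a peak in 1 list or more of another condition.

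Hypermethylated pH 5.5-only regions occurred on all 12 chromosomes at a similar density, from 24.6 per Mb on chromosome 5 to 27.8 per Mb on chromosome 9. Their share of the regions with a peak in this IP ranged from 11.7% (10.9 to 12.5) on chromosome 12 to 13.7% (12.7 to 14.7) on chromosome 9. Within chromosomes they were uneven. The median 100-kb window held 2 of them, 348 of 3739 windows held none and 20 windows held 10 or more. The fullest windows were on chromosome 2 from 13600001 to 13700000, with 28 of the 56 common peaks of this IP, on chromosome 1 from 16800001 to 16900000, with 25 of 37, and on chromosome 12 from 12000001 to 12100000, with 23 of 52. In these 3 windows, 13, 15 and 13 of the regions had an input level of at least 2 times the background. No IgG-called CK peak lay over any region of these 3 windows, whereas such peaks covered 33.1% of all hypermethylated pH 5.5-only regions. Input-called CK peaks went the other way, covering 4, 7 and 5 of the regions in these windows, against 0.692% of all hypermethylated pH 5.5-only regions.

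On a scale of 1 Mb, the fullest bin of a chromosome held from 33 regions on chromosome 11 to 81 on chromosome 2, while the median bin held 23 to 26.5. These bins began at 16 Mb on chromosome 1, 13 Mb on chromosome 2, 2 Mb on chromosome 9 and 12 Mb on chromosome 7, and there 23.8%, 26.1%, 22.4% and 20.8% of the common peaks of this IP were found in no other condition. Over the remainder of the same chromosomes the shares were 11.4%, 11.3%, 11.6% and 11.7%. The share was higher in the fullest bin than in the remainder on 10 of 12 chromosomes, and not on chromosome 3 (12.2% and 12.3%) or chromosome 11 (11.2% and 11.3%). As background, rice centromeres, which are rich in satellite repeats and retrotransposons, have been placed in or beside the fullest bin on most chromosomes, but no centromere annotation was used here. Of the 176 regions with an input level of at least 2 times the background, 128 lay in these 12 bins. The bins were chosen for their number of regions, so this was not tested. In the same bins, demethylated pH 5.5-only regions were fewer than in the median bin of the chromosome on 10 of 12 chromosomes, and demethylated pH 7.0-only regions were more numerous on 11 of 12. Hypermethylated pH 7.0-only regions were more numerous on 7 and fewer on 5, and CK-only regions were more numerous on 6 and fewer on 5.

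The position of the regions was not used to choose them and was compared with the other condition-only groups. For each chromosome the difference of the medians was taken, and its signs were flipped in all combinations (exact permutation test, two-sided, with Benjamini-Hochberg adjustment over 6 tests). Chromosomes are not biological replicates, so the test compares merged libraries. Of the 6 tests, those on the distance to regions of all 5 conditions, given below, used the same peak calls as the rule. Hypermethylated pH 5.5-only regions lay farther from the chromosome ends than demethylated pH 5.5-only regions. The median distance to the nearer end was 26.3% of the chromosome length, against 22.8%. The difference per chromosome was 3.33 ± 1.45 percentage points (SD, n = 12 chromosomes) and positive on 12 of 12 (adjusted p = 0.00146 by the exact permutation of signs). It was also past the threshold under all 9 alternatives run, from 2.11 to 4.29 percentage points. The medians per chromosome ranged from 22.4% on chromosome 9 to 27.8% on chromosome 2 in hypermethylated pH 5.5-only regions, and from 21.5% on chromosome 9 to 24.4% on chromosome 4 in demethylated pH 5.5-only regions.

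The outer parts of the chromosomes, within 10% of their length of either end, held 19.0% (18.2 to 19.8) of the hypermethylated pH 5.5-only regions. They held 18.8% of all regions. Of the demethylated pH 5.5-only regions they held 22.4% (21.7 to 23.0), the highest share of the condition-only groups. The shares were 17.3% in hypermethylated pH 7.0-only, 16.1% in demethylated pH 7.0-only and 18.3% in CK-only regions. Against all remaining regions, no difference in distance was detected (26.3% and 26.0%, difference 0.14 ± 1.3 percentage points, adjusted p = 0.724 by the exact permutation of signs). Nor was one detected against hypermethylated pH 7.0-only regions (26.3% and 26.2%, difference -0.49 ± 2.76 percentage points, adjusted p = 0.72 by the same exact permutation).

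**Figure D5:**
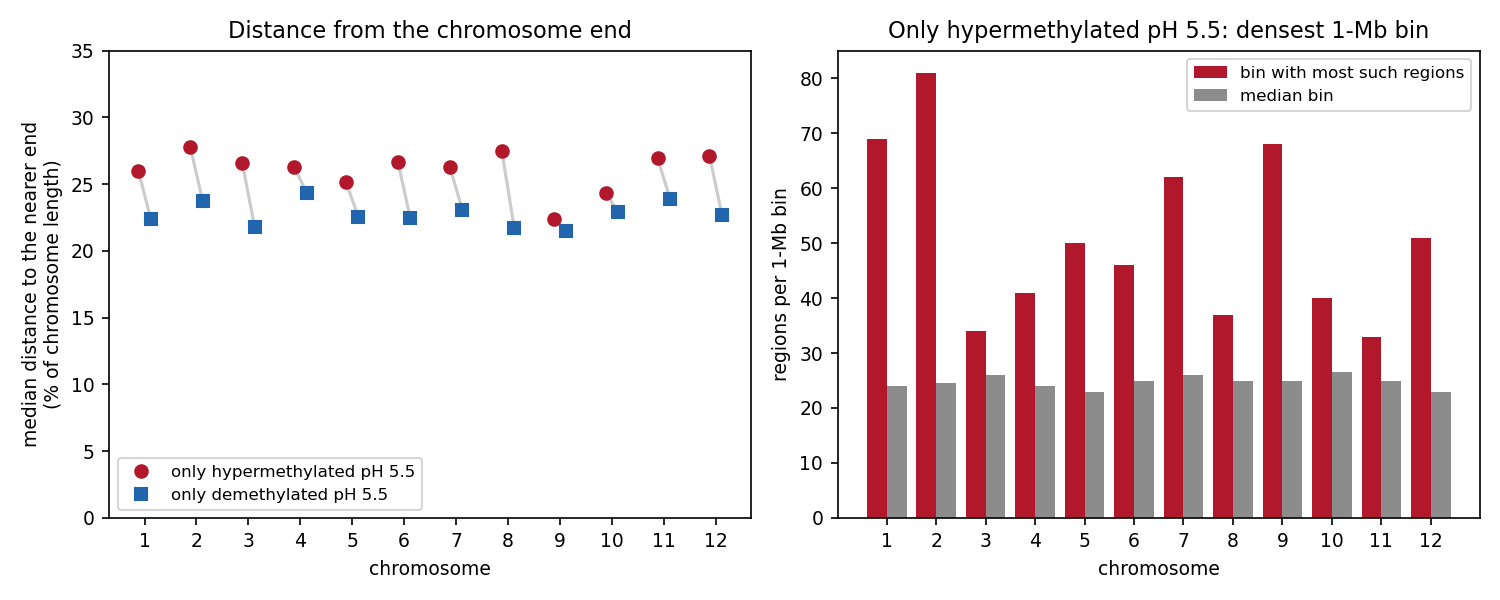
Left, median distance to the nearer chromosome end (% of chromosome length) per chromosome for regions only in hypermethylated DNA at pH 5.5 (red circles) and only in demethylated DNA at pH 5.5 (blue squares), with the red circle higher on 12 of 12 chromosomes. Right, number of hypermethylated pH 5.5-only regions in the fullest 1-Mb bin of each chromosome (red, 33 to 81) and in its median bin (grey, 23 to 26.5).

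The regions were also placed relative to the 30100 regions with a common peak in all 5 conditions. The median distance to the nearest of these was 4356 bp for hypermethylated pH 5.5-only regions and 4031 bp for the 73447 remaining regions that were not themselves found in all 5 conditions. The difference per chromosome was 339 ± 177 bp (SD, n = 12 chromosomes) and positive on 12 of 12 (adjusted p = 0.00146, exact permutation of signs). The regions of all 5 conditions and the compared regions came from the same peak calls as the rule. Distances ran from edge to edge, so the width of a region enters them. The part of the rule and of width in this difference was not tested. This depended on the peak set, since with all input-called peaks it was -23.1 bp (adjusted p = 0.634, sign-flip permutation) and with a −log10 q-value of at least 5 it was 252.5 bp (adjusted p = 0.0713, sign-flip permutation). With the top 20000 peaks of each condition it was 3138 bp (adjusted p = 0.0742, sign-flip permutation). Against demethylated pH 5.5-only regions the difference was -42.7 ± 269 bp (adjusted p = 0.72) and against hypermethylated pH 7.0-only regions it was 416.5 ± 609 bp (adjusted p = 0.085, both by exact sign-flip permutation), neither past the threshold. The difference from demethylated pH 5.5-only regions passed it in opposite directions under 3 alternatives, at -221 bp with all input-called peaks, 225 bp with all IgG-called peaks and 780 bp with means (adjusted p = 0.0381, 0.0366 and 0.00293, exact sign-flip permutation). The difference from hypermethylated pH 7.0-only regions passed it under 3 alternatives, all positive, from 420.04 to 5262 bp.

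Gaps to the peaks of the other conditions were also measured. The median gap to the nearest common peak of any other condition was 1041 bp, and 4612 regions (48.3%) had one within 1000 bp. By condition, the median gap was 1701 bp to demethylated DNA at pH 5.5, 1811 bp to hypermethylated DNA at pH 7.0, 1635 bp to demethylated DNA at pH 7.0 and 2634 bp to CK, whose sets held 75913, 67787, 73109 and 55062 common peaks. The order of the gaps is the reverse of that of the set sizes apart from demethylated DNA at pH 5.5. The median gap to another hypermethylated pH 5.5-only region was 12398 bp, and 644 regions (6.75%) had one within 1000 bp.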

How the data were processed

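Per the study's methods and the labels, the authors trimmed the reads, aligned them with BWA to the MSU v7.0 genome, filtered them with SAMtools and Picard, pooled both IP libraries of each condition, and ran MACS2 2.1.1 on them (q-value 0.05), once with input and once with IgG as control. The 10 deposited lists give for each peak a fold (a ratio of IP to local control level) and a −log10 p-value and −log10 q-value computed by the authors. For demethylated DNA at pH 7.0 the labels of the IP libraries point to the hypermethylated input-called list, and the list whose peak names read demethylated was used instead.

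Fold and p-value were solved for the whole number of fragments at each summit and the local control level (tolerance 0.002 in −log10 p), which succeeded at 94.6% to 100% of peaks per list. Overlaps, distances, the solver and the sign-flip test were tested on simulated data (bedtools 2.31.1, scipy 1.17.1, numpy 2.4.6). The sign-flip test used 4096 sign patterns, so its smallest p-value is 0.000488. The last peak end on a chromosome in any of the lists stood for its length. Intervals are 95% Wilson intervals and cover counting error only.

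The regions named in the text are the 10 with the highest −log10 q-value, the 5 with the highest fold, the 3 widest, the 3 with the lowest −log10 q-value, the 3 fullest 100-kb windows and those closest to the edge of the overlap rule. The fullest 1-Mb bins and the classes of input level were chosen after their values were seen. The regions and comparisons were chosen with earlier results of these data known. The planned work on sequence composition, C-tract motifs and gene annotation needs the MSU v7.0 genome and was not done here.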

Additional observations from a re-analysis of the deposited data

How the results depend on the processing

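No paired analysis was possible because the authors merged the replicates before calling peaks, which also prevented leaving one out. The 7 results were recomputed under alternatives, giving 66 values, of which 49 did not change sign or cross the threshold (for counts, moved by less than 1.5 times). The number of hypermethylated pH 5.5-only regions was 5946 with a fold of at least 4, 2786 with the top 20000 peaks of each condition, 4551 when no peak was allowed in any list of another condition and 14452 without demethylated DNA at pH 7.0 in the comparison. The other 8 settings gave 8112 to 12248. Leaving out regions with a raised input level (9363) was chosen after seeing the data.

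The distance to regions of all 5 conditions was the least stable result. Against demethylated pH 5.5-only regions the difference was -221 bp with all input-called peaks, 494 bp with the top 20000 peaks, 225 bp when IgG-called peaks alone were used, 19.5 bp with no peak in any other list and 780 bp with means. Those with input-called peaks, IgG-called peaks and means passed the threshold, in opposite directions, and the adjusted p ranged from 0.00293 to 0.948 over the alternatives. Against hypermethylated pH 7.0-only regions it passed the threshold with all IgG-called peaks (420.04 bp), a fold of at least 4 (5262 bp) and means (1021 bp). Against the remaining regions it was -23.1 bp with all input-called peaks, and it missed the threshold with a −log10 q-value of at least 5 (252.5 bp) and with the top 20000 peaks (3138 bp). The distance to the chromosome end changed sign, without passing the threshold, against hypermethylated pH 7.0-only regions with all IgG-called peaks (0.059 percentage points) and against the remaining regions without raised input levels (-0.11). The cause of these changes was not tested, except that fewer regions enter under stricter settings. The alternatives on sequence composition and annotation were not run. Peaks near the calling threshold rest on as few as 18 fragments, so absence in another condition means no call at its depth.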
